A study of Homo sapiens with 21 samples.

Results

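Immune cells read the state of a neighbouring cell through ligands on its surface, and the B7 family is the best known group of such ligands. The genes described here are 10 B7 family and related costimulatory or checkpoint ligands, CD80, CD86, CD274, PDCD1LG2, ICOSLG, CD276, VSIR, HHLA2, CD83 and CD58. They were chosen by name, with no measured value in the rule but with earlier results of these data known. They are 10 of the 58174 gene identifiers measured in the series, each found once under its symbol. RNA was sequenced from 21 libraries of OCI-AML5, a human acute myeloid leukemia cell line, in 7 groups of 3 libraries.

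The first 5 groups form a time course, spelled by the labels as AML5 in DMSO, the vehicle, for 72 h and AML5 exposed to UM171 for 6, 24, 48 and 72 h. UM171 is a small molecule used to expand hematopoietic stem cells in culture, and the labels give its dose as 500 nM in every UM171 group whereas legends of the study give a lower one. The other 2 groups are AML5 clones expressing sgEPCR, a guide against PROCR, the gene of the endothelial protein C receptor (EPCR), held for 24 h in DMSO or in UM171. The labels describe these cells both as EPCR null and as a knockdown, and they do not say which clone a library came from. The study's text speaks of several independent sgEPCR clones and of several guides against EPCR, without tying them to these libraries, so clone and guide cannot be told apart here. For the cells of the time course the labels name no guide, whereas the study's wild-type comparison cells carried a guide called sgAAVS1. Whether the time course libraries are those cells is not stated, so they are called control cells here, and a difference between genotypes may include the presence of a guide. The control DMSO libraries are labelled 72 h against 24 h for the sgEPCR DMSO libraries. The methods add GM-CSF to the medium of this cell line in all groups. No label says that the 3 libraries of a time course group came from separate cultures, so their spread may be technical.

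B7 proteins belong to the immunoglobulin superfamily and are displayed by antigen-presenting cells and by many tumour cells. CD80 and CD86 bind CD28, which stimulates T cells, and CTLA4, which restrains them, while CD274 (PD-L1) and PDCD1LG2 (PD-L2) bind the inhibitory receptor PD-1. Myeloid cells raise CD86, and often CD80 after it, when they are activated, and myeloid leukemia cells can carry inhibitory members of the family such as VSIR (VISTA) and CD276 (B7-H3).

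Total counts ran from 24.3 to 51.5 M per library with a median of 33.9 M, and in 19 libraries mitochondrial genes took 7.73 to 13.5% of the counts. The exceptions were replicate 1 of sgEPCR DMSO, at 35.9%, and replicate 2 of sgEPCR UM171, at 32.2%, so the sgEPCR results of the members tested are also given without these libraries. PROCR, the targeted gene, stood at 48.5, 48.5 and 48.5 TPM in the control UM171 24 h libraries and at 8.94, 4.23 and 8.41 TPM in the sgEPCR UM171 libraries, a difference of -2.63 ± 0.12 (log2, SE; edgeR adjusted p = 1.92e-07) and of -2.59 without the 2 libraries. In DMSO it stood at 3.37, 4.30 and 3.38 TPM in control cells and at 2.30, 4.53 and 3.93 TPM in sgEPCR cells, groups that overlapped, so the level of the transcript separates the genotypes in UM171 and does not check the label in DMSO. The line's own markers CD33, PTPRC and SPI1 had group means of 75.1 TPM or more in every group, whereas KIT and ANPEP, also fixed as myeloid leukemia markers, stayed under 1 TPM in every group mean. The other 3 of the 8 markers were lower and moved between groups, with means of 4.71 TPM in DMSO, 1.08 TPM at 72 h and 0.87 TPM in sgEPCR DMSO for CD34, a marker of immature cells. MPO, an enzyme of myeloid granules, went from 7.25 to 0.74 TPM with UM171 in sgEPCR cells, and CSF2RA, a chain of the GM-CSF receptor, from 4.61 to 16.0 TPM. At 72 h 3 of the 7 markers tested were called against DMSO, 1 higher and 2 lower, beside 20.8% of all genes tested. In the test of the difference between the genotypes' responses 3 of 7 were called, 2 higher and 1 lower, beside 7.77%.

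The members lie on 7 chromosomes (GRCh38, GENCODE 44 gene bounds). CD80 (chr3:119524293-119559614), CD86 (chr3:122055362-122121139) and HHLA2 (chr3:108296529-108378285) share chromosome 3, and CD274 (chr9:5450503-5470566) and PDCD1LG2 (chr9:5510531-5571282) are neighbours on chromosome 9. The others are CD58 (chr1:116514534-116571039), CD83 (chr6:14117256-14136918), VSIR (chr10:71747556-71773520), CD276 (chr15:73683966-73714514) and ICOSLG (chr21:44215382-44241446). RefSeq promoter windows (GRCh38.p14) were matched for 9 of the 10 members, all but PDCD1LG2. The upstream bases of 4 members are printed because 2 of them, CD86 and CD274, rose with UM171 and 2, VSIR and HHLA2, fell and came back. They are written on the strand of the gene and end before the gene's bounds, over chr3:122055112-122055361 (+) for CD86, chr9:5450292-5450502 (+) for CD274, chr10:71773521-71773770 (-) for VSIR and chr3:108296298-108296528 (+) for HHLA2, and capitals mark matches to the motif letters searched.
CD86: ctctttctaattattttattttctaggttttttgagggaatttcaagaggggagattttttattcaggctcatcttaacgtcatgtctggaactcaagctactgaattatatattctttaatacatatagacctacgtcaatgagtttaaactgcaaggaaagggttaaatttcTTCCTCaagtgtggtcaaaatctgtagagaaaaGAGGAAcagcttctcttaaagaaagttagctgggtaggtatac
CD274: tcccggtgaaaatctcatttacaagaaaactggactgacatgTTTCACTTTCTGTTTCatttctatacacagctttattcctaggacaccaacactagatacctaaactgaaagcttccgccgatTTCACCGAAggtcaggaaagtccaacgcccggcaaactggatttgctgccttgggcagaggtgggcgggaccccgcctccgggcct
VSIR: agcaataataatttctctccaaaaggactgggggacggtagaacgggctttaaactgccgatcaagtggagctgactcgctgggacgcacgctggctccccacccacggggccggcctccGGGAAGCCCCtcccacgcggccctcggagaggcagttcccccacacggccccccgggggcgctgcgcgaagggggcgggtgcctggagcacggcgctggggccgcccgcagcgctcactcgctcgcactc
HHLA2: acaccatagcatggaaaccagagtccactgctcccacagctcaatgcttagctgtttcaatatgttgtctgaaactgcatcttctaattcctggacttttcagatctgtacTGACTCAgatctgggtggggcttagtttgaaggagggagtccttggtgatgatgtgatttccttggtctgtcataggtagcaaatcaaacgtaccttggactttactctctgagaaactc

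The 5 motifs NF-kappaB, AP-1, ISRE, GAS and PU.1 were searched on both strands in the 250 bases before each RefSeq start. The windows of CD276 (chr15:73684133-73684382) and ICOSLG (chr21:44240944-44241193) lie wholly inside the GENCODE gene bounds given above. Those of CD274, CD58 and HHLA2 reach into the bounds in part, so not every window is upstream of its gene. CD86 held the PU.1 core GAGGAA on each strand and CD58 also held it, beside 23.4% of the 27305 promoters with at least 1 match. CD274 held the interferon response element (ISRE) as 2 overlapping matches (3.07% of promoters) and the GAS element TTCNNNGAA (6.78%). VSIR held the NF-kappaB motif (9.57%) and HHLA2 the AP-1 motif TGANTCA (6.60%). CD80, CD83, CD276 and ICOSLG held none of the 5 motifs. Base composition also set the windows apart, with 34.0% G and C for CD86 and 34.8% for CD83 against 80.8% for CD276, 79.2% for ICOSLG and a median of 58.0% over all promoters. These matches describe letters in 1 window for each gene and were not tested against any response.

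VSIR, CD276, HHLA2, CD58 and CD83 made up nearly all of the ligand transcripts of these cells in DMSO, and the classical ligands CD80, CD274 and PDCD1LG2 were at the edge of detection. In DMSO, VSIR alone held 50.7 to 53.0% of the summed TPM of the 10 genes (TPM, a level per transcript length), followed by HHLA2 at 16.3 to 17.95%, CD58 at 11.1 to 13.1% and CD276 at 8.84 to 9.99%. After 24 h of UM171 CD276 was the leading member at 27.1 to 33.7% and VSIR held 17.97 to 21.7%. By 72 h VSIR led again with 33.9 to 35.7%, and CD86, at 0.849 to 1.02% in DMSO, held 6.16 to 6.66%. The summed TPM itself went from 183 to 191 in DMSO to 133 to 151 at 24 h and 245 to 255 at 72 h. In a bulk sample fewer cells that carry a transcript and less transcript per cell cannot be told apart.

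**Figure D1:**
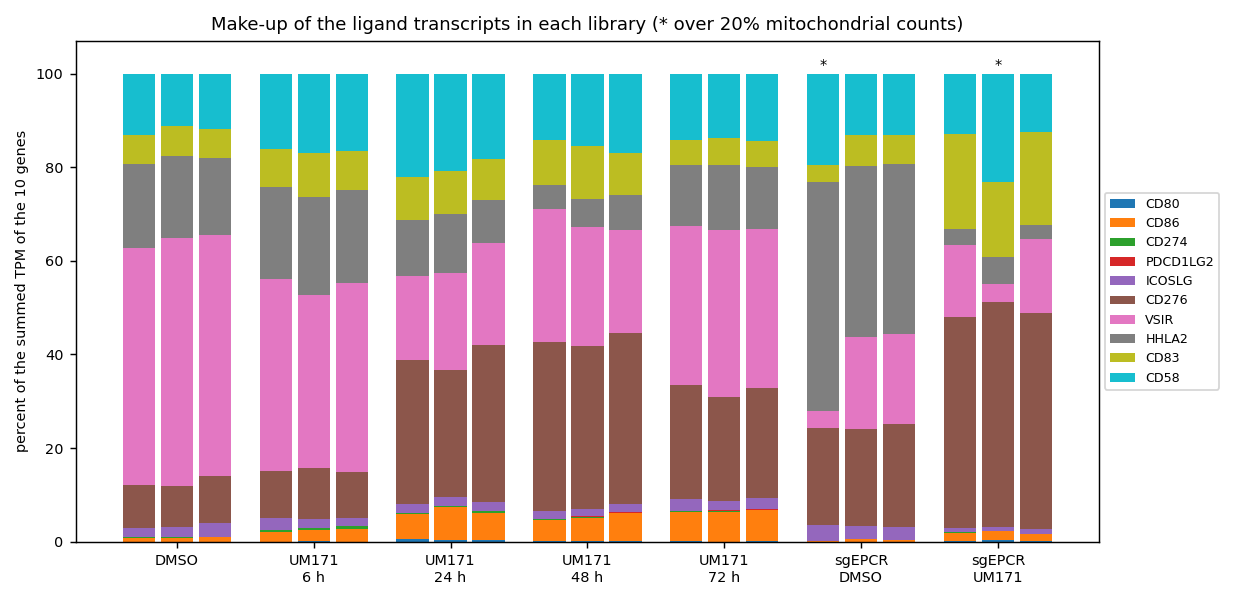
Percent of the summed TPM of the 10 ligand genes that each gene took, stacked for each of the 21 libraries (3 bars per group, y axis in percent, asterisks over the 2 libraries with more than 20% mitochondrial counts). VSIR held 50.7 to 53.0% in DMSO and 17.97 to 21.7% after 24 h of UM171, and CD276 held 45.1 to 48.1% in sgEPCR cells with UM171.

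Changes were tested with edgeR's quasi-likelihood test across all genes, and a gene was called at an adjusted p under 0.0001 (Benjamini-Hochberg, over all genes tested) and a change over 2-fold, the limits of the study. All 10 members passed the filter on low counts in the time course, where the 4 comparisons share the 3 DMSO libraries. Those libraries are all labelled 72 h, so at 6, 24 and 48 h UM171 and time in culture cannot be told apart. CD80, CD274 and PDCD1LG2, with at most 3 counts in any DMSO library, passed the filter only through UM171 libraries. Their p-values against DMSO depend on that, and so do their places in the counts of calls below. Against DMSO 2 of the 10 were called at 6 h, both higher, beside 7.03% of the 16575 genes tested (6.78% higher and 0.247% lower). At 24 h 5 were called, 3 higher and 2 lower, beside 13.7% of all genes (9.03% higher and 4.70% lower). At 48 h 6 were called, 5 higher and 1 lower, beside 16.4% (11.7% and 4.67%). At 72 h 4 were called, all higher, beside 20.8% (2486 genes higher and 962 lower). The median log2 fold change of the members was 0.26, 0.74, 1.40 and 1.12 at the 4 times, and the median of all tested genes lay between -0.01 and 0.02. Total count scaling in place of TMM moved the median of all genes at 6 h by 0.18 on the log2 scale, and the log2 values here are relative to the TMM centre.

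CD86, the costimulatory ligand of CD28 and CTLA4, was higher than DMSO at 6 h and higher again at each later time. The study itself reports CD86 induction by UM171 in this line. It kept the line after screening several for a rise of both EPCR and CD86, so the rise is no independent finding. It stood at 1.62, 1.55 and 1.96 TPM in the DMSO libraries and at 3.94, 4.38 and 4.86 TPM after 6 h. It reached 7.13, 9.44 and 8.88 TPM after 24 h, 9.92, 9.84 and 10.2 TPM after 48 h and 15.1, 16.1 and 17.0 TPM at 72 h. No 2 of these 5 groups overlapped. The log2 fold change against DMSO was 1.22 ± 0.10 (SE) at 6 h, 2.19 ± 0.10 after 24 h, 2.55 ± 0.10 after 48 h and 3.19 ± 0.09 at 72 h, with edgeR adjusted p from 3.85e-08 at 6 h to 8.90e-15 at 72 h. Between neighbouring times CD86 gained 0.97, 0.36 and 0.63 on the log2 scale, each with an edgeR adjusted p under 0.05 (highest 0.00126) and each short of 2-fold.

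CD80, which shares both receptors with CD86, was all but silent in DMSO and appeared between 6 and 24 h. Its counts were 0, 1 and 0 in DMSO and 0, 3 and 1 at 6 h. They were 36, 26 and 15 after 24 h, 19, 20 and 8 after 48 h and 8, 2 and 6 at 72 h. The ratio of the depth-corrected sums of counts to DMSO was 67.0 after 24 h (95% counting interval 11.7 to 2680), 47.2 after 48 h (8.06 to 1902) and 15.2 at 72 h (2.37 to 639), and the intervals cover counting error only. CD80 passed the limits at 24 h (edgeR adjusted p = 6.11e-06) and 48 h (3.40e-05) and not at 72 h (0.00536). The 48 h call was lost without any 1 of DMSO replicates 1, 2 and 3 and 48 h replicates 1 and 2, with edgeR adjusted p between 1.15e-04 and 4.11e-04. At its highest CD80 was 0.57 ± 0.16 TPM (SD, n = 3) against 8.48 ± 1.21 TPM for CD86 in the same libraries, so CD86 carried most of the transcript for CD28 ligands. From 6 to 24 h CD80 rose past the limits (edgeR adjusted p = 2.98e-05), a call lost without 6 h replicate 1 or 3 or 24 h replicate 1.

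CD274, the gene of PD-L1, was higher with UM171 from the first time on. The DMSO libraries held 1, 3 and 2 counts and the 6 h libraries 32, 39 and 35. The later libraries held 7, 16 and 11 counts after 24 h, 27, 19 and 11 after 48 h and 21, 26 and 35 at 72 h. Every UM171 library lay above every DMSO library. The log2 fold change was 4.08 ± 0.43 (SE) at 6 h (edgeR adjusted p = 4.24e-07), 2.25 ± 0.52 after 24 h (9.28e-04), 3.16 ± 0.47 after 48 h (1.19e-05) and 3.62 ± 0.45 at 72 h (1.10e-06). From 6 to 24 h it fell by 1.83 on the log2 scale (edgeR adjusted p = 8.03e-05), a call lost without any 1 of 10 libraries (DMSO replicate 3, 6 h replicates 2 and 3, 24 h replicates 1 and 2, 48 h replicates 1 and 2, 72 h replicates 1, 2 and 3). The 48 h call was lost without DMSO replicate 1 (edgeR adjusted p = 1.37e-04) or 3 (1.46e-04). In TPM the level stayed low, at 0.83 ± 0.36 at 6 h (SD, n = 3), and the transcript length that RSEM assigned ranged from 601 to 3553 bases between libraries. The TPM of CD274 depends on that length, and with limma on log2(TPM + 0.1) the 6 h difference passed the limits (limma adjusted p = 9.59e-05) while those at 48 h (0.00995) and 72 h (3.95e-04) did not. A pseudocount of 1 holds differences at such low levels under 2-fold, and none of the 3 was called with it.

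PDCD1LG2, the gene of PD-L2 and the neighbour of CD274, had no count in any DMSO library. It had 7, 4 and 4 counts at 6 h, 5, 10 and 5 after 24 h, 18, 19 and 9 after 48 h and 9, 12 and 23 at 72 h. Ratios to a floor of 3 counts over the DMSO group were 4.98 at 6 h and 5.80 after 24 h. They were 15.4 after 48 h and 14.0 at 72 h. The counting error of the UM171 counts is left out of these ratios. PDCD1LG2 passed the limits at 48 h (edgeR adjusted p = 2.67e-06) and 72 h (3.44e-06) and missed them at 6 h (5.06e-04) and 24 h (1.85e-04). Since it entered the test through UM171 libraries alone, these p-values are no separate support for the rise. All 48 and 72 h libraries, with 9 counts or more, lay above all 6 h libraries, with 7 or fewer.

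CD276, an inhibitory or costimulatory ligand whose receptor is not settled, was not called at 6 h and was the most abundant member at 24 and 48 h. It stood at 17.1, 16.1 and 19.1 TPM in DMSO and 18.4, 19.5 and 18.1 TPM at 6 h, groups that overlapped. It then reached 40.8, 36.4 and 50.8 TPM after 24 h, 79.6, 72.1 and 63.7 TPM after 48 h and 59.7, 55.9 and 59.9 TPM at 72 h. The log2 fold change was -0.10 ± 0.08 (SE) at 6 h, 2.01 ± 0.07 at 48 h and 1.62 ± 0.07 at 72 h, with calls at 24, 48 and 72 h (edgeR adjusted p from 2.42e-13 to 2.78e-10). From 6 to 24 h it rose by 1.30 ± 0.08 on the log2 scale (SE; edgeR adjusted p = 1.78e-10). The 6 h value changed sign under total count scaling, to 0.09. The loss from 48 to 72 h was 0.40 on the log2 scale (edgeR adjusted p = 1.15e-04), and the 2 groups did not overlap in TPM.

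VSIR, which encodes the T cell inhibitory ligand VISTA, fell and returned over the UM171 times. It stood at 94.6, 96.8 and 98.7 TPM in DMSO and at 74.2, 66.8 and 74.6 TPM at 6 h. The lowest values were 24.0, 27.8 and 32.8 TPM after 24 h, followed by 62.7, 52.6 and 38.3 TPM after 48 h and 83.3, 89.9 and 86.4 TPM at 72 h. All UM171 libraries lay below all DMSO libraries, those at 72 h by the least. The log2 fold change was -1.82 ± 0.10 (SE) at 24 h, the one VSIR call against DMSO, and -0.24 ± 0.09 at 72 h (edgeR adjusted p = 0.0249). Between neighbouring times it fell by 1.35 from 6 to 24 h (edgeR adjusted p = 1.92e-09) and rose by 1.01 from 24 to 48 h (2.96e-07). The rise is barely over the 2-fold limit, and leaving out any 1 of 7 libraries (6 h replicates 1, 2 and 3, 24 h replicates 1 and 2, 48 h replicates 1 and 2) brought it to between 0.90 and 0.99. The 48 h libraries were the least alike, at 51.2 ± 12.3 TPM (SD, n = 3), and the lowest of them was replicate 3, which also had the highest mitochondrial share of the time course, 13.5%; its part in the value was not tested.

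HHLA2, a B7 member read by TMIGD2 on resting T and NK cells, also fell and returned. Its levels were 33.5, 31.8 and 31.2 TPM in DMSO and 35.9, 37.6 and 36.8 TPM at 6 h. They were 15.9, 17.0 and 13.9 TPM after 24 h, 11.5, 12.7 and 13.3 TPM after 48 h and 32.1, 35.0 and 33.6 TPM at 72 h. The 24 and 48 h libraries lay below all others of the time course, the 72 h libraries overlapped DMSO, and the 6 h libraries were the highest in TPM while their log2 fold change in the count fit was 0.02. The log2 fold change was -1.10 ± 0.09 (SE) after 24 h (edgeR adjusted p = 1.21e-08), -1.38 ± 0.10 after 48 h (7.48e-10) and -0.05 ± 0.09 at 72 h (0.632). From 48 to 72 h HHLA2 rose by 1.33 ± 0.10 (SE, log2; edgeR adjusted p = 5.27e-09). Between 24 and 48 h VSIR had risen by 1.01 while HHLA2 differed by -0.28 ± 0.10 (edgeR adjusted p = 0.0280).

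**Figure D2:**
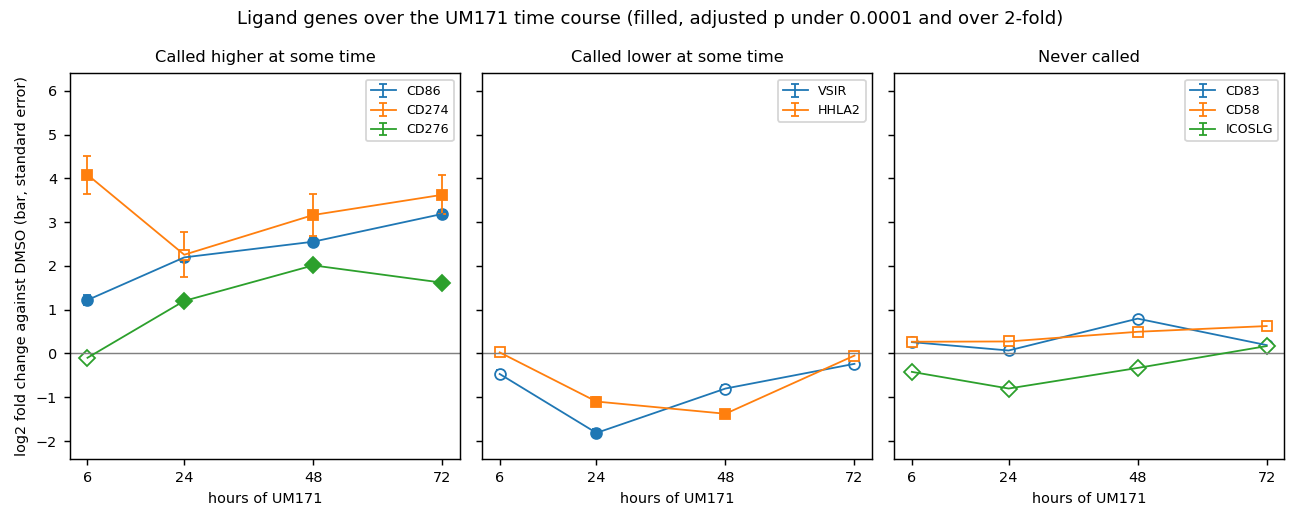
Log2 fold change against DMSO (y axis, bars are standard errors) at 6, 24, 48 and 72 h of UM171 (x axis) for 8 members, with filled symbols for called values. CD86 climbed to 3.19 at 72 h and CD274 started at 4.08 at 6 h, while VSIR reached -1.82 after 24 h and HHLA2 -1.38 after 48 h and both were near 0 at 72 h; CD80 and PDCD1LG2 are left out because their DMSO libraries held 1 count and none.

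The remaining 3 members were never called in the time course, although each differed from DMSO within 2-fold at some time. CD58 (LFA-3), the ligand of the T and NK cell adhesion receptor CD2, went from 24.5, 20.3 and 22.9 TPM in DMSO to 34.8, 34.8 and 36.7 TPM at 72 h. The groups did not overlap, and the log2 fold change was 0.63 ± 0.07 (SE; edgeR adjusted p = 3.90e-07). CD83, a marker of mature dendritic cells, stood between 11.7 and 11.9 TPM in DMSO, at 21.3, 23.3 and 15.7 TPM at 48 h and between 13.1 and 14.4 TPM at 72 h. Its 48 h log2 fold change was 0.80 ± 0.06 (SE; edgeR adjusted p = 4.79e-09). ICOSLG, the ligand of ICOS, was lowest at 24 h, with 2.62, 2.46 and 2.84 TPM against 3.66, 3.92 and 5.66 TPM in DMSO, a log2 fold change of -0.80 ± 0.08 (SE; edgeR adjusted p = 1.47e-07).

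ICOSLG is the 1 member whose reads are shared with another entry. GENCODE marks a second copy at chr21:5022531-5036771 as an artifactual duplication, and 15.2% of the distinct 50-base words of ICOSLG transcripts also occur in it. RSEM gave the copy 37.3 to 331 counts per library, and the posterior SD of the ICOSLG count was 8.24 to 25.1 counts against at most 1.28 for any other member. With the counts of both entries added, ICOSLG differed from DMSO by -0.90 ± 0.06 (log2, SE) at 24 h (edgeR adjusted p = 2.25e-10).

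Counting the calls between neighbouring times, 5 members were called from 6 to 24 h beside 10.0% of all genes, with CD276 and CD80 higher and CD274, VSIR and HHLA2 lower. From 24 to 48 h VSIR was the 1 member called, higher, beside 2.85% of all genes. From 48 to 72 h HHLA2 was the 1 member called, also higher, beside 3.35%. With all 21 libraries in 1 fit, which takes in the sgEPCR libraries' spread, the rise of CD276 from 6 to 24 h was the 1 of these 7 calls left (edgeR adjusted p = 1.03e-07), and the others had edgeR adjusted p from 1.05e-04 to 0.0173. Within the time course the order of VSIR and CD276 reversed and returned, with VSIR above CD276 in every DMSO and 6 h library, CD276 above VSIR in every 24 and 48 h library, and VSIR above CD276 in every 72 h library.

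**Figure D3:**
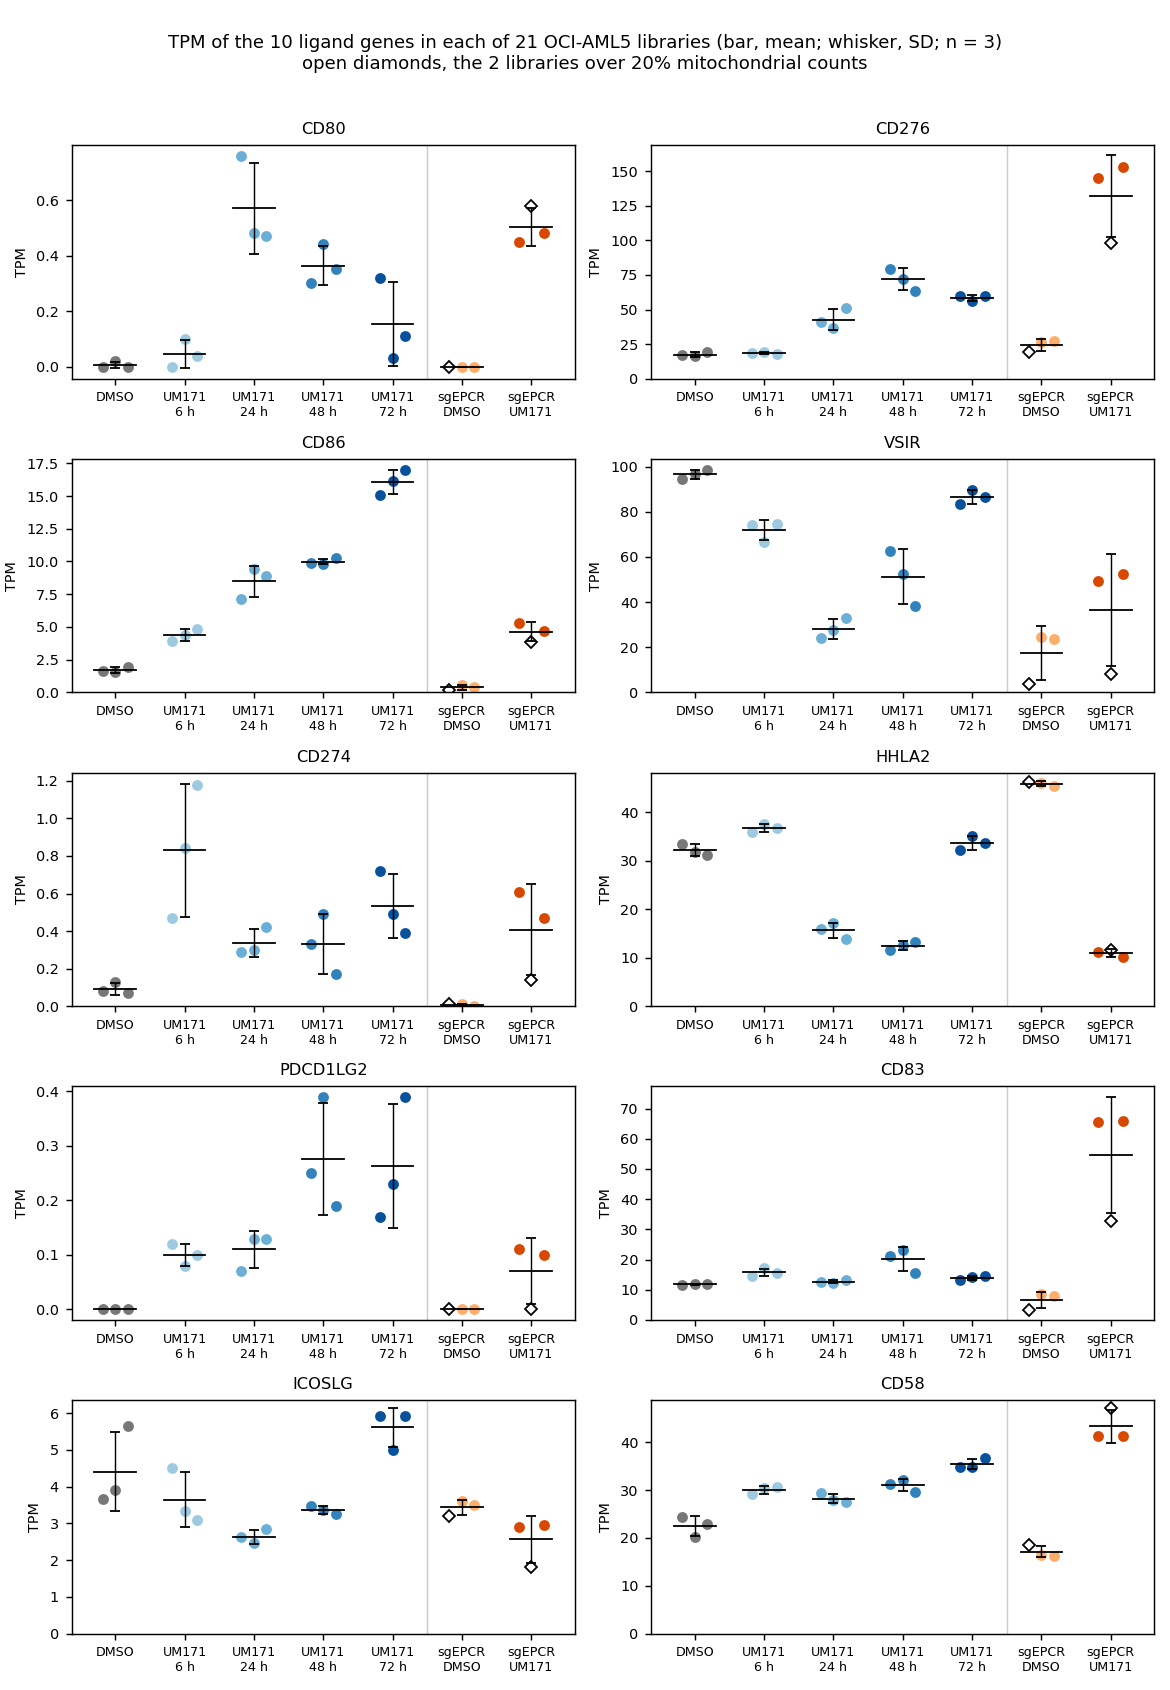
TPM of each member (y axis, linear) in the 3 libraries of each of the 7 groups (x axis), with the mean as a bar and the SD as a whisker; open diamonds are the 2 sgEPCR libraries with over 20% mitochondrial counts. CD83 reached 65.7 and 65.9 TPM in 2 sgEPCR UM171 libraries against at most 23.3 TPM in the time course, and the open diamonds of VSIR lie at 3.56 and 7.98 TPM.

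In sgEPCR cells UM171 raised CD83, CD86 and CD276 past the limits, and the response of CD83 was the one called as different from that of control cells. In the fit of 12 libraries 9 members passed the low-count filter, all but PDCD1LG2, which had 6, 0 and 6 counts in sgEPCR UM171 and none in sgEPCR DMSO. CD80 and CD274 passed it only through UM171 libraries, as in the time course. UM171 against DMSO called 3 of the 9 in sgEPCR cells (CD83, CD86 and CD276, all higher, beside 10.3% of the 15901 genes tested) and 2 of the 9 in control cells (CD86 and CD276, beside 7.02%). The CD276 call in control cells was lost without any 1 of the 6 control libraries, sgEPCR DMSO replicate 2 or sgEPCR UM171 replicates 1 and 3. Between the genotypes CD86 was called lower in DMSO, 1 of 9 beside 2.84%, and CD276 and CD83 higher in UM171, 2 of 9 beside 4.46%. The interaction, which tests the difference between the 2 responses, called CD83 alone, 1 of 9 beside 7.77%. At an adjusted p under 0.05 with no limit on the change it also took in CD276, CD86 and VSIR, 4 of 9 beside 45.0% of all genes, a share near the background. The interaction and the comparison of genotypes in DMSO take the 72 h DMSO libraries as the control baseline. The genotype and the time in DMSO therefore cannot be told apart in either.

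CD83 had the 1 interaction that passed both limits. It was at 12.5, 12.3 and 13.2 TPM in control UM171 24 h libraries and at 65.7, 32.6 and 65.9 TPM in sgEPCR UM171 libraries, while sgEPCR DMSO held 3.43, 8.48 and 7.82 TPM. The 4 groups were separate from one another, with sgEPCR DMSO the lowest and sgEPCR UM171 the highest, and the lower value in each sgEPCR group was the library with over 20% mitochondrial counts. The log2 response to UM171 was 2.81 ± 0.07 (SE) in sgEPCR cells and 0.07 ± 0.07 in control cells, an interaction of 2.74 ± 0.10 (edgeR adjusted p = 5.88e-08). Leaving those 2 libraries out, the interaction was 2.74 ± 0.07 (edgeR adjusted p = 9.63e-13). It was of like size but short of the limit on p with limma on log2(TPM + 1) (2.79; limma adjusted p = 0.00320) and log2(TPM + 0.1) (2.97; 0.00415) and with the replicate block (2.74; edgeR adjusted p = 5.06e-04).

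CD276 rose in both genotypes and further in sgEPCR cells. Its levels were 19.5, 26.2 and 27.4 TPM in sgEPCR DMSO and 145, 98.0 and 153 TPM in sgEPCR UM171, the latter above every library of the time course. The log2 response was 2.14 ± 0.15 (SE) in sgEPCR cells and 1.21 ± 0.15 in control cells, an interaction of 0.92 ± 0.21 (edgeR adjusted p = 0.00443). The difference between genotypes in UM171 was 1.84 ± 0.15 (edgeR adjusted p = 6.40e-06), short of the limit without control UM171 24 h replicate 2 (1.02e-04). Without the 2 libraries the interaction was 1.06 ± 0.11 (edgeR adjusted p = 1.23e-06) and passed both limits, and the difference between genotypes in UM171 was 1.78 ± 0.07 (6.27e-11). In sgEPCR UM171 cells CD276 held 45.1 to 48.1% of the summed TPM of the members.

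CD86 began from a lower base in sgEPCR cells, held in DMSO for 24 h against 72 h for control cells. It stood at 0.19, 0.60 and 0.40 TPM in sgEPCR DMSO, below the 1.55 to 1.96 TPM of control DMSO, and at 5.31, 3.88 and 4.69 TPM in sgEPCR UM171, below the 7.13 to 9.44 TPM of control UM171. Neither pair of groups overlapped. The difference between genotypes was -1.95 ± 0.19 (log2, SE) in DMSO (edgeR adjusted p = 3.61e-05) and -0.81 ± 0.16 in UM171 (0.00211), and the response to UM171 was larger in sgEPCR cells by 1.14 ± 0.25 (0.00362). The DMSO call was lost without any 1 of the control libraries or of sgEPCR DMSO replicates 1 and 3, 8 libraries in all, with edgeR adjusted p from 1.07e-04 to 4.14e-04. Without the 2 high-mitochondrial libraries the difference was -1.89 ± 0.17 in DMSO (edgeR adjusted p = 2.55e-07) and -0.98 ± 0.10 in UM171 (5.84e-07). The sgEPCR response was then 3.10 ± 0.16, larger by 0.91 ± 0.20 than that of control cells (edgeR adjusted p = 0.00100). CD86 thus had a higher fold response and a lower level with UM171 in the sgEPCR cells.

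VSIR with UM171 lay above DMSO in the mean of sgEPCR cells and below it in control cells. It stood at 3.56, 24.7 and 23.8 TPM in sgEPCR DMSO and at 49.2, 7.98 and 52.3 TPM in sgEPCR UM171, where 3.56 and 7.98 TPM belong to the 2 libraries with over 20% mitochondrial counts. With those values the sgEPCR groups overlapped, and without them sgEPCR UM171 lay above sgEPCR DMSO. Control cells went the other way, from 94.6 to 98.7 TPM in DMSO to 24.0 to 32.8 TPM with UM171. The log2 response was 0.97 ± 0.35 (SE) in sgEPCR cells and -1.80 ± 0.36 in control cells, an interaction of 2.77 ± 0.50 (edgeR adjusted p = 0.00109) that missed the stricter limit and passed it without sgEPCR UM171 replicate 2 (3.08; 6.86e-05). In DMSO sgEPCR cells differed from control cells by -2.20 ± 0.36 (edgeR adjusted p = 9.01e-04), again past the limit without that library (8.26e-05). Without the 2 high-mitochondrial libraries the interaction was 2.81 ± 0.09 (edgeR adjusted p = 6.54e-12) and the sgEPCR response 0.99 ± 0.07. The difference between genotypes in DMSO was then -1.91 ± 0.07 (edgeR adjusted p = 2.95e-11). The 2 libraries held the lowest VSIR values of the series, and the part of the mitochondrial share in them was not tested.

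HHLA2 was lower with UM171 in both genotypes. It stood at 46.2, 46.1 and 45.3 TPM in sgEPCR DMSO and at 11.2, 11.6 and 10.1 TPM in sgEPCR UM171, with no overlap. The log2 response was -2.37 ± 0.38 (SE) in sgEPCR cells (edgeR adjusted p = 3.81e-04) and -1.10 ± 0.37 in control cells (0.0316). Without sgEPCR UM171 replicate 2 the sgEPCR response was -2.87 (edgeR adjusted p = 6.50e-05). When both high-mitochondrial libraries were left out, the standard errors were smaller and the responses were -2.35 ± 0.08 and -1.10 ± 0.06, with an interaction of -1.25 ± 0.10 (edgeR adjusted p = 5.75e-08) that passed both limits.

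CD58 had 18.5, 16.5 and 16.3 TPM in sgEPCR DMSO and 41.4, 47.3 and 41.3 TPM in sgEPCR UM171, the highest levels of the series. Its response of 1.07 ± 0.38 (log2, SE) did not pass the limits with all 12 libraries (edgeR adjusted p = 0.0340) and did without the 2 libraries, at 1.15 ± 0.09 (2.20e-08). CD80 had no count in sgEPCR DMSO and 15, 16 and 21 counts in sgEPCR UM171. Its ratio to a floor of 3 counts over the group was 15.1 (edgeR adjusted p = 1.60e-04, short of the limit). The counting error of the UM171 counts is left out of that ratio. CD274 had 1, 1 and 0 counts in sgEPCR DMSO and 25, 13 and 28 in sgEPCR UM171, a ratio of 28.8 with a 95% counting interval of 7.67 to 243 (edgeR adjusted p = 1.40e-04). Without the 2 libraries both CD80 (edgeR adjusted p = 5.31e-05) and CD274 (3.93e-05) passed the limits. For neither was the interaction called, with edgeR adjusted p of 0.415 and 0.0846, or 0.429 and 0.0466 without the 2 libraries. PDCD1LG2, not tested here, had a ratio of 3.49 to the floor of 3 counts with UM171 in sgEPCR cells, on the same terms. Replicate 2 of that group held no count. ICOSLG differed by -0.45 ± 0.12 (log2, SE) with UM171 in sgEPCR cells (edgeR adjusted p = 0.0107), within 2-fold, and by -0.47 ± 0.09 without the 2 libraries (1.84e-04).

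Without the 2 libraries the counts of members called rose in every comparison of the 12-library fit but 1. UM171 called 7 of 9 members in sgEPCR cells, beside 15.7% of 16360 genes, and 5 of 9 in control cells, beside 13.4%. The interaction called 4 of 9, CD83, CD276 and VSIR higher and HHLA2 lower, beside 19.1%. In DMSO 2 of 9 were called between genotypes, beside 6.50%, and in UM171 2 of 9 as before, beside 9.87%. The number of libraries that carry a group is then 2 for each sgEPCR group.

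**Figure D4:**
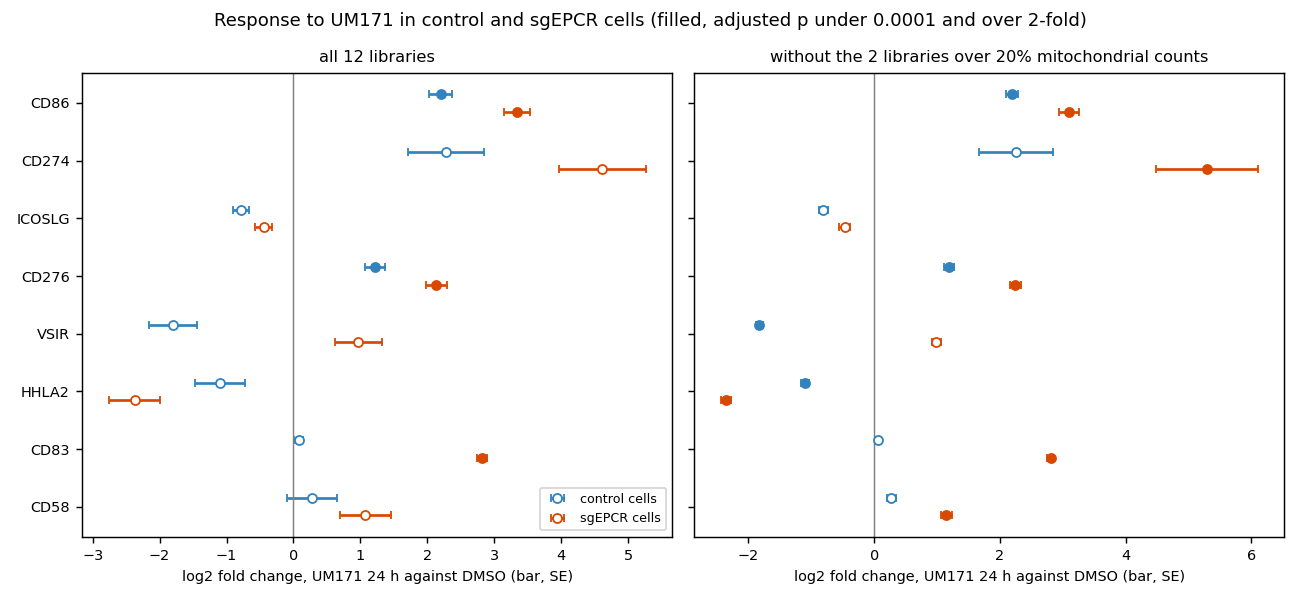
Log2 response to 24 h of UM171 (x axis, bars are standard errors) of 8 members in control cells (blue) and sgEPCR cells (orange), with filled symbols for called values, from all 12 libraries (left) and without the 2 libraries with over 20% mitochondrial counts (right). CD83 lies at 0.07 and 2.81 and VSIR at -1.80 and 0.97 in the left panel; CD80 is left out because it had no count in sgEPCR DMSO.

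Ordered by group mean, each member had its own ranking of the 7 groups. CD86, CD83, CD274, CD58 and VSIR were lowest in sgEPCR DMSO, VSIR with values that overlapped those of 24 h of UM171. CD86 was highest at 72 h of UM171 (16.1 ± 0.93 TPM, SD, n = 3) and its neighbours in the order did not overlap except 6 h and sgEPCR UM171. CD274 was highest at 6 h, but the values of that group, of 72 h and of sgEPCR UM171 overlapped. CD276, CD83 and CD58 were highest in sgEPCR UM171, with no overlap with the next group in any of the 3 cases. VSIR was highest in DMSO and HHLA2 in sgEPCR DMSO, again with no overlap with the next group.

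The genes whose levels followed a member most closely over the 21 libraries were named by Pearson's r of log2 CPM among 16786 genes, as a description with no test, and all 21 libraries share 1 cell line and the same 7 groups. For CD86 they were LTBP2 (r = 0.98), ABLIM3 (0.97) and LY9 (0.97). For CD83 they were CSRNP2, TMEM217 and CYTH1 (each 0.97), for CD274 KIF13A (0.95), TRIM34 (0.94) and ENPP4 (0.94), and for CD58 RAB2B (0.97), SH3BGRL (0.97) and EVI2B (0.95). Between members the highest r was 0.84, for CD86 and PDCD1LG2, and the lowest -0.83, for CD80 and HHLA2.

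Of 12 genes of receptors that read ligands of this kind, 3 had enough counts to be tested, and CD28, CTLA4 and ICOS, the receptors of CD80, CD86 and ICOSLG, had group means of at most 0.03 TPM. CD226, an activating receptor for PVR and NECTIN2, was called higher at 24, 48 and 72 h, with log2 fold changes of 2.85, 4.17 and 3.95, and went from 0.43 TPM in DMSO to 5.61 TPM at 48 h (group means). HAVCR2 (TIM-3), an inhibitory receptor also found on myeloid leukemia cells, was called at 48 h, by 1.16. In sgEPCR cells HAVCR2 went from 0.65 to 18.1 TPM with UM171 (group means), an interaction of 4.76 on the log2 scale that was called, as was the value of 4.67 without the 2 high-mitochondrial libraries.

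Other ligands for T and NK cells were followed as a list of 20 genes, of which 15 were tested in the time course. At 6 h 4 of the 15 were called higher and none lower, after 24 h 5 higher and 1 lower, after 48 h 7 higher and at 72 h 8 higher with none lower, beside 7.03, 13.7, 16.4 and 20.8% of all genes called in either direction. BTN2A2 and BTN3A2, butyrophilins related in sequence to the B7 family, and TNFSF4 (OX40L), the ligand of OX40, were called higher at all 4 times. At 72 h their log2 fold changes were 1.46, 2.09 and 1.02. BTN3A1, a butyrophilin with a part in the sensing of phosphoantigens by gamma-delta T cells, was called at 6, 48 and 72 h and reached 2.07.

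Among 13 genes that regulate members, 1 was called after 24 h, 1 after 48 h and 2 at 72 h, and none at 6 h. The shares of all genes were 7.03% at 6 h, 13.7% after 24 h, 16.4% after 48 h and 20.8% at 72 h. The list is too short for these counts to be read as a lower share. MARCHF1, a ubiquitin ligase that removes CD86 from the cell surface, was called lower at 24 h (-2.69) and 48 h (-2.42). Its level was low throughout, 0.65 TPM in DMSO and 0.18 TPM at 24 h (group means). CMTM4, which stabilises PD-L1 protein, was called higher at 72 h (1.05), and SPI1, the gene of PU.1, lower, with group means of 216 TPM and 417 TPM in DMSO.

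Markers of other blood cells were read beside these results. Of 10 dendritic markers 8 or 9 were under 1 TPM in every library of each time course group, and the sum was mostly FSCN1, from 210 to 223 TPM in DMSO to 82.0 to 92.6 TPM at 72 h. Of the 3 dendritic markers tested at 72 h FSCN1 was called lower (-1.41), and CCR7, a chemokine receptor of mature dendritic cells, and LAMP3 were called higher (3.68 and 2.70), from means of 0.06 and 0.16 TPM to 0.49 and 1.33 TPM. Summed monocyte markers went from 809 to 905 TPM in DMSO to 1908 to 2158 TPM at 72 h, mostly LYZ, with ITGAM called higher at 48 and 72 h (2.05 and 3.02) and VCAN at 24, 48 and 72 h. CD14, FCGR3A and CD163, defining markers of the same list, stayed under 1 TPM in every library. Summed T cell markers went from 7.07 to 7.94 TPM to 30.9 to 34.8 TPM at 72 h through CD3D and TRAC, with CD3E, CD3G and TRBC1 at or near 0. Summed B cell markers went from 9.48 to 10.5 TPM to 23.5 to 26.5 TPM mostly through CD79A, with MS4A1 at 0, and summed NK markers from 16.9 to 20.1 TPM to 57.4 to 61.8 TPM through NCAM1. The NK sum was higher at each later time, as CD86 was, and so was the monocyte sum except that its 24 and 48 h values overlapped, whereas the dendritic sum was lower with UM171. The T and B sums were lower at 72 h than at 48 h, when they were 36.7 to 48.4 and 37.5 to 43.4 TPM, and the B sum at 6 h, 8.83 to 10.2 TPM, overlapped DMSO. The part of these cell markers in the rise of CD86 was not tested.

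In sgEPCR cells some of these markers moved with CD83 between DMSO and UM171 and others of the same lists did not. Summed dendritic markers, again mostly FSCN1, overlapped at 33.1 to 120 TPM in DMSO and 35.5 to 138 TPM with UM171, while CCR7 went from 0.02 to 0.09 TPM in DMSO to 0.64 to 2.59 TPM and was called higher (5.13). Summed monocyte markers overlapped at 505 to 896 and 808 to 1403 TPM. Within that list VCAN, from 21.1 to 124 TPM, and ITGAM, from 6.61 to 40.6 TPM (group means), were called higher, with no overlap. Summed T cell markers went from 2.94 to 7.33 TPM to 35.3 to 70.7 TPM, with CD3D and TRAC called higher. The B sums overlapped at 7.97 to 21.7 and 6.26 to 14.6 TPM, and the NK sums at 28.5 to 32.8 and 31.0 to 35.0 TPM. Of the markers tested, 1 of 3 dendritic, 2 of 5 monocyte and 2 of 3 T cell markers were called, beside 10.3% of all genes. The median log2 response was -0.04 for the dendritic and 0.31 for the monocyte markers. Without the 2 high-mitochondrial libraries CCR7, VCAN, ITGAM, CD3D and TRAC were called as well. LAMP3 (-0.14), FSCN1 (0.04), CD68 (0.07) and CSF1R (0.30) were not. The part of these markers in the rise of CD83 was not tested.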

How the data were processed

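Poly(A) RNA of OCI-AML5 cells was sequenced in 21 libraries. The submitters' processing notes name Trimmomatic 0.35, STAR 2.5.1b, RSEM 1.2.28 and the GRCh38 build, and the file headers are RSEM's, whereas the study's methods name kallisto and sleuth, whose output was not used here. The deposited expected counts are RSEM's estimated counts per gene, and the deposited TPM values are RSEM's levels per transcript length, scaled to the same total in every library, both with no pooling of libraries. Identifiers were stripped of their version and matched to GENCODE 44 symbols, which 57392 of 58174 had, and 45 second entries of genes shared by both sex chromosomes were added to the first. Expected counts were rounded and tested with edgeR 4.0.16 (TMM, quasi-likelihood, low counts removed by filterByExpr) in R 4.3.3, with 15 libraries (DMSO and 4 UM171 times) or 12 (genotype by UM171 at 24 h) in 1 fit. Adjusted p is Benjamini-Hochberg over all genes tested.

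Ratios with 95% intervals cover counting error only, and the intervals are exact. Ratios to a floor of 3 counts take the counts of the higher group as exact. A floor of 3 counts was 5.82e-06 to 1.24e-05% of a library. All members were named, as were up to 4 genes of each other list, those called at the most times; members and lists were chosen with earlier results of these data known. Promoter windows of 250 bases were RefSeq's. DESeq2 1.42.0, limma 3.58.1 on log2(TPM + 1) and log2(TPM + 0.1), other scalings, filters and library sets, and 1 library left out at a time were the alternatives, and the edgeR fit was tested on simulated data. One alternative, the reads of the duplicated ICOSLG entry added to it, was chosen after seeing the data.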

Additional observations from a re-analysis of the deposited data

Results flagged for a closer look

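At an adjusted p under 0.05 the interaction in the fit of 12 libraries, the test of the difference between the responses of sgEPCR and control cells to 24 h of UM171, took in 4 of the 9 members tested, beside 45.0% of all genes, so the members did not stand apart from the background. For CD83 the difference was 2.74 on the log2 scale (edgeR adjusted p = 5.88e-08), for VSIR 2.77 (0.00109), for CD86 1.14 (0.00362) and for CD276 0.92 (0.00443), each given as the sgEPCR response minus the control response. CD83, CD86 and CD276 had the higher response in sgEPCR cells, whereas VSIR had a response of -1.80 in control cells and of 0.97 in sgEPCR cells, whose groups overlapped. Without the 2 libraries with over 20% mitochondrial counts the same values were 2.74, 2.81, 0.91 and 1.06. The control baseline was the DMSO group labelled 72 h, so genotype and time in DMSO cannot be told apart in any of the 4. Groups held 3 libraries each, too few to look for single outlying libraries.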

How the results depend on the processing

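Of 1278 member values under another setting, 1122 kept their direction and side of the limits, 52 lost a call, 77 gained one and 27 changed sign, and of 1481 with 1 library left out the numbers were 1428, 36, 6 and 11. No value that passed the limits changed sign. The cause of these changes was not tested beyond what each setting does to the libraries or genes. With an adjusted p under 0.05 and no 2-fold limit the members called were 7, 9, 10 and 8 at 6, 24, 48 and 72 h, 24 over the 3 steps between times, 9 and 7 for UM171 in sgEPCR and control cells, 5 and 4 between genotypes in DMSO and UM171, and 4 for the interaction. With at least 10 counts in every library they were 1, 3 and 2 at 6, 48 and 72 h, since low members were no longer tested. With limma on log2(TPM + 1) they were 0, 3 and 2 at those times, and with either pseudocount 4 over the steps, 1 for control UM171 and 0 in both genotype comparisons and the interaction. Only the libraries of the contrast gave 3 at 48 h, 1 for sgEPCR UM171, 5 for control UM171 and 0 between genotypes in either medium. DESeq2 and all 21 libraries in 1 edgeR fit both gave 6, 4, 2 and 2 for sgEPCR UM171, control UM171, genotype in DMSO and the interaction, and the latter gave 1 over the steps. No filter gave 6 for sgEPCR UM171, RLE scaling 1 for control UM171 and total count scaling 0 for genotype in DMSO. Without the 2 libraries the counts were 7, 5, 2 and 4 for sgEPCR UM171, control UM171, genotype in DMSO and the interaction.

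Same-numbered libraries of the time course groups did not deviate together (r from -0.079 to 0.075). Between the 2 sgEPCR groups r ran from -0.56 to 0.41. Each of these groups held 1 library with over 20% mitochondrial counts, so whether their numbers pair clones cannot be judged from r. With the replicate block the counts were 0 for control UM171, both genotype comparisons and the interaction, and HHLA2 between genotypes in UM171 was 0.044, while time course counts stayed within 1.5 times. With 1 library left out, counts ran from 1 to 2 for control UM171, 0 to 2 for genotype in DMSO, 1 to 2 for genotype in UM171 and 1 to 2 for the interaction.

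The sign changed for uncalled log2 differences, and not all of them were small in the main fit. There the CD80 interaction was 1.60 ± 1.29 (SE) and CD274 from 24 to 48 h was 0.91 ± 0.34. VSIR between genotypes in UM171 was 0.57 ± 0.35. With limma (pseudocount 0.1, then 1) CD80 was -0.042 and -0.049 in the interaction, CD274 -0.081 and -0.013 from 24 to 48 h, and CD276 0.10 and 0.096 at 6 h (0.085 by total counts). Between genotypes in UM171 ICOSLG was -0.070 and -0.046 and VSIR -0.027 and -0.0050. CD58 from 6 to 24 h was -0.018 with at least 10 counts, -0.090 and -0.088 with limma, -0.15 by total counts, -0.11 by upper quartile and -0.012 to 0.056 with 1 library left out. CD58 between genotypes in DMSO was -0.39 and -0.38 with limma, -0.17 by total counts, -0.36 without the 2 libraries and -0.35 to 0.43 with 1 left out. HHLA2 at 6 h was -0.022 with no filter and -0.025 to 0.086 with 1 left out. At 72 h it was 0.016 with at least 10 counts, 0.061 and 0.059 with limma, 0.030 by total counts, 0.022 by upper quartile and -0.088 to 0.015 with 1 left out. Leaving out 1 library gave -0.65 to 0.068 for HHLA2 between genotypes in UM171 and -0.54 to 0.097 for PDCD1LG2 from 48 to 72 h.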
